A study of Mus musculus with 108 samples.

Results

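The late hemogenic endothelium (HE2) is the stage at which endothelial cells that express KIT, TIE2 and CD41 are committed to forming blood. In the study, fragments of open chromatin were tested in these cells for enhancer activity, and the cells were sorted by how strongly their reporter shone. The comparison described here asked whether fragments recovered from brightly shining HE2 cells differed from those recovered from dimly shining HE2 cells. It used the 14 HE2 samples sorted as reporter-positive, of 95 sorted samples and 108 samples in all. They were chosen by stage and gate from the sample labels. The low side of a replicate was its Low gate (5 samples), and the high side was the union of its Medium and High gates (4 samples each) or, in replicate 5, of its single Medium/High gate (1 sample). All samples share the same cells and reporter. Tn5 fragments from 5 stages of differentiation were cloned in front of the HSP68 minimal promoter and the gene for Venus-YFP, a yellow fluorescent protein. The mouse embryonic stem cell line HM-1, whose own Hprt gene is not functional, took up the reporters at Hprt by recombination and was then differentiated in serum. Both sides are therefore pools of cells with different fragments at 1 locus, and fluorescence could not be linked to single cells. The labels do not say whether the replicates were separate differentiations, so p-values measure the spread between the replicates, which may be technical.

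An enhancer is a stretch of DNA that raises transcription from a promoter when transcription factors bind to it. In hemogenic endothelium, endothelial programmes driven by ETS, SOX and Notch factors give way to a blood programme in which RUNX1, GATA2, TAL1 and GFI1 factors take part. Enhancers of this stage are known to respond also to AP-1, TEAD and RBPJ, which carry signals from outside the cell.

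Each library was a list of distinct fragments without read numbers. The HE2 positive libraries held 321440 distinct fragments of 69 to 600 bp, of which 111309 were in the distal lists (over 1.5 kb from a transcription start, by the authors' annotation) and 210131 in the promoter lists. The number of fragments on a side fell steeply between replicates. Replicate 1 held 124176 fragments on the high side and 83166 on the low side. Replicate 2 held 96178 and 42170, and replicate 3 held 16253 and 504. Replicate 4 held 1238 and 1715, and replicate 5 held 646 and 1057. The high side was the larger in replicates 1 to 3 and the smaller in replicates 4 and 5. For all measures of composition, the larger side of a replicate was therefore drawn down to the number of the smaller side, and the mean of 20 draws was used.

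**Figure D1:**
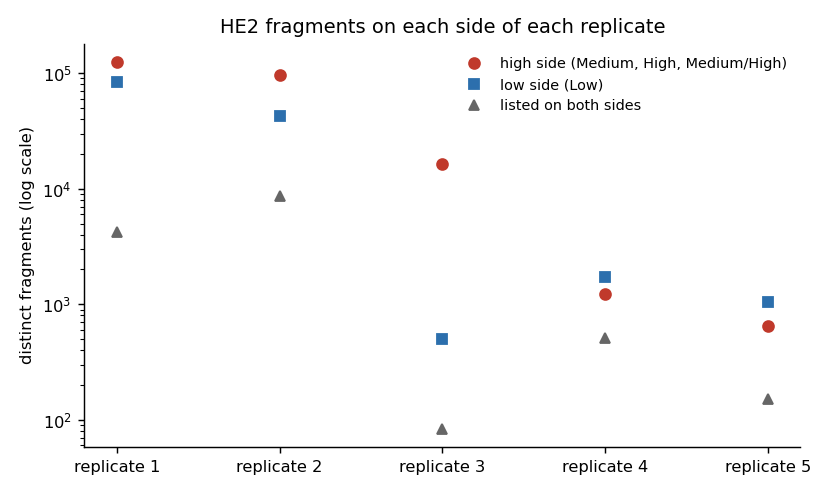
Distinct fragments (log scale) on the high side, on the low side and on both sides of each of the 5 HE2 replicates. The sides ranged from 504 fragments (low side of replicate 3) to 124176 (high side of replicate 1), and fragments listed on both sides from 84 to 8664.

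The sorted lists were not clean opposites of each other. Fragments listed on both sides of 1 replicate numbered 4259 in replicate 1, which was 5.12% of the smaller side. In replicate 2 they numbered 8664 (20.5%), in replicate 3 84 (16.7%), in replicate 4 509 (41.1%) and in replicate 5 150 (23.2%). Replicates 3 to 5 are shallow, so few fragments carry these last shares. Fragments on both sides were more abundant in the reporter plasmid than fragments on a single side, with a mean of 1.04 to 2.48 log2(1 + reads) against 1.01 to 1.81 for one-sided fragments. This order held in replicates 1, 2, 4 and 5 and not in replicate 3.

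Sharing between libraries did not follow gate or replicate alone. In replicate 1 the Low list shared 3.56% of the smaller list with High and 3.65% with Medium, and 11.3% with Negative. Medium and High of replicate 1 shared 11.8%, and Negative shared 4.18% with High and 3.94% with Medium. The Medium/High list of replicate 5 shared 25.7% of its fragments with the Low list of replicate 1, and the Low list of replicate 5 shared 23.5% of its fragments with the Negative list of replicate 1. In replicate 4 the gates shared 30.3% to 49.3% with each other, more than in the other 4 replicates. Between replicates, high sides shared a mean of 7.30% with each other (10 pairs, range 1.08% to 19.3%). High and low sides of different replicates shared 7.42% (20 pairs, 1.27% to 27.4%). Low sides shared a mean of 5.1% with each other (10 pairs, 1.11% to 10.7%). Whether labels or sequencing indices were crossed between some libraries was not tested, and all directions below rest on the labels as given. Ranges of the differences with each replicate left out are given with the processing.

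**Figure D2:**
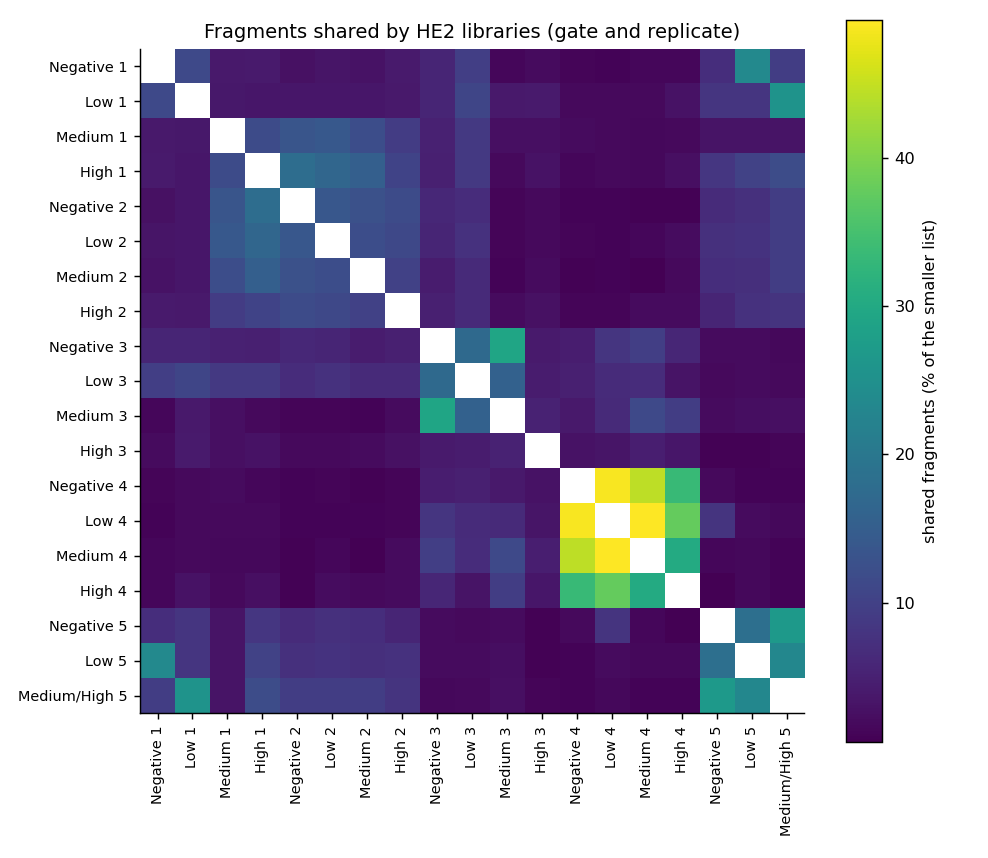
Percentage of the smaller list shared by each pair of the 19 HE2 libraries, named by gate and replicate, with the 5 Negative libraries included. The bright block is replicate 4, where gates shared 30.3% to 49.3% with each other, and the bright cells in the first rows are replicate 5 against replicate 1.

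Most fragments were listed on 1 side of 1 replicate. Fragments on a single high side and no low side numbered 179688, and those on a single low side and no high side numbered 102011. On 2 high sides and no low side lay 14833 fragments, and on 2 low sides and no high side 721. On 3 high sides and no low side lay 82, and on 3 low sides and no high side 4. High sides held more fragments in replicates 1 to 3, so these counts do not compare the 2 sides at equal depth. These members were picked for this pattern and are described without a test. A stretch of the genome of the same build (GRCm38.p6, plus strand, 5′ to 3′) is given for the few that carry it, so that a reader can see what was recovered. Capitals mark matches to the 16 motifs searched.

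The first pair lay on the high side of replicates 1, 2 and 3 and in no Low list. The first lies in an intron of Gse1, 697 bp upstream of the nearest protein-coding start at chr8:120535095-120535225. The second lies at chr4:136310644-136310733, 254 bp upstream of the start of Hnrnpr, which encodes an RNA-binding protein.

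Gse1 intron, high side of 3 replicates: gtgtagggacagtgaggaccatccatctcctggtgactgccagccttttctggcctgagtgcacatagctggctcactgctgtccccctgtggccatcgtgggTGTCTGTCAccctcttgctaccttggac
Hnrnpr upstream, high side of 3 replicates: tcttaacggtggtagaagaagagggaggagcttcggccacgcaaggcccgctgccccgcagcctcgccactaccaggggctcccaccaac

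The Gse1 fragment was in 5 libraries, the High and Medium gates of replicates 1 and 2 and Medium of replicate 3. Its capitals cover a SMAD and a MEIS motif (CAGACA and TGACAG, on either strand), which overlap in this sequence. Of promoter fragments within 10 bp of its length, 5.81% held the SMAD and 7.77% the MEIS letters. The Hnrnpr fragment was in the same 5 libraries and held none of the 16 motifs. The third by the same rule was a distal fragment of 216 bp at chr2:165112194-165112409, in an exon of Cdh22, which encodes a cadherin.

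The next pair lay on the low side of 3 replicates and on no high side. The Tspan33 fragment (a tetraspanin gene) is intergenic, 20880 bp upstream of the start, at chr6:29673220-29673464. The Dnaja2 fragment (a co-chaperone gene) lies 199 bp upstream of the start, at chr8:85555428-85555659.

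Tspan33 upstream, low side of 3 replicates: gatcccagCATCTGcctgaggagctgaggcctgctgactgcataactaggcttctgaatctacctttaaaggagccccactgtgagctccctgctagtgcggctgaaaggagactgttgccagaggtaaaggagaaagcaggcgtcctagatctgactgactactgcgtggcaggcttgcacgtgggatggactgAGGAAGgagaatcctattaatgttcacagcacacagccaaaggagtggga
Dnaja2 upstream, low side of 3 replicates: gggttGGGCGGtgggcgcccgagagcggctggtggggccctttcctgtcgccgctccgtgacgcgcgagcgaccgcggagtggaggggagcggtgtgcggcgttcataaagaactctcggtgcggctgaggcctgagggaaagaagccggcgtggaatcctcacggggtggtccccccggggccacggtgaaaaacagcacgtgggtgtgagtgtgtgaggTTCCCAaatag

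The Tspan33 fragment was listed in the Low gates of replicates 1, 3 and 4, and the Dnaja2 fragment in those of replicates 1, 2 and 3. The capitals of the Tspan33 sequence are a TAL1 E-box (CAGATG) and an ETS motif of endothelium and blood (AGGAAG), on either strand. Of distal fragments within 10 bp of its length, 19.8% held the E-box and 42.5% the ETS letters. The capitals of the Dnaja2 sequence are a KLF and SP motif (GGGCGG) and an RBPJ motif (TGGGAA), which 60.4% and 14.1% of promoter fragments of like length held. The third by the rule was a promoter fragment of 288 bp at chr19:42201914-42202201, over an exon of Sfrp5, which encodes a secreted inhibitor of Wnt signalling.

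Other fragments were listed on both sides of most replicates. They were picked after the values were seen. The most widespread was a promoter fragment of Fam199x (chrX:137049593-137049989, 397 bp), which was in 13 of the 14 libraries, on 5 high and 4 low sides. The most widespread distal one is intergenic and lies 92999 bp downstream of the start of Hif1an, at chr19:44655778-44655921.

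Hif1an downstream, both sides of most replicates: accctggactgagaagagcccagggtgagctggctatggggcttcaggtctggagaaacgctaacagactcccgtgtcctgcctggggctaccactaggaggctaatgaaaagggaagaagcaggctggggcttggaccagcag

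It was listed on 4 high and 4 low sides, in 11 libraries, and held none of the 16 motifs. It was absent from the libraries of replicate 4, as were the high-side fragments shown.

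The mix of distal and promoter fragments differed between the sides by less than the spread between replicates. Distal fragments made up 34.7%, 34.4%, 32.5%, 24.1% and 32.8% of the high side in replicates 1 to 5, a mean of 31.7% ± 4.38 (SD, n = 5). On the low side they made up 35.5%, 33.6%, 30.0%, 27.1% and 32.3%, a mean of 31.7% ± 3.25. The groups overlap, and replicate 4 was the lowest on both sides. The difference was 0.0112 percentage points with a 95% interval of -5.89 to 5.22, higher in 3 of 5 replicates. An exact permutation test, taken two-sided, gave p = 0.992 before and after adjustment over 7 measures. The interval spans shifts of several percentage points, so a smaller shift was not detectable here. Within a replicate the difference ranged from -3.06 to 2.59, and the unpaired interval also holds the spread between replicates.

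Distance and gene context of distal fragments also differed by less than that spread. The median distance to the nearest annotated start was 6985, 7052, 6528, 4216 and 7463 bp on the high side. On the low side it was 7192, 6686, 7259, 5347 and 6088 bp. The mean difference was -65.9 bp (95% interval -1625 to 1375, p = 0.929 by the exact permutation test). Intergenic fragments made up 38.6% ± 4.25 of distal fragments on the high side and 39.2% ± 1.33 on the low side (n = 5 each), a difference of -0.597 percentage points (interval -5.14 to 3.23). Exonic fragments made up 13.6% ± 2.68 and 14.03% ± 2.91, a difference of -0.456 (interval -5.09 to 3.87). Introns held the remainder, 47.9% ± 3.14 and 46.8% ± 2.41. All adjusted p-values of these measures were 0.992.

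The same held for fragment length and for the share of promoter fragments that span a start. Distal fragments had a median length of 172, 167, 204, 240 and 205 bp on the high side and of 175, 170, 193, 221 and 202 bp on the low side. The high side was shorter in replicates 1 and 2 and longer in replicates 3 to 5. The mean difference was 5.20 bp (interval -30.4 to 40.8). Promoter fragments measured 219 ± 24.8 bp on the high side and 219 ± 19.1 bp on the low side (n = 5), a difference of -0.415 bp (interval -35.3 to 33.4). Of promoter fragments, 59.7% ± 7.24 spanned a start on the high side and 58.7% ± 4.39 on the low side, a difference of 0.950 percentage points (interval -7.24 to 9.66). Adjusted p was 0.992 for each (exact permutation test). Replicate 4 had the longest distal fragments and the largest TSS-spanning share on both sides, 72.2% on the high side and 64.0% on the low side, where replicate 3 was near it at 62.9%.

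**Figure D3:**
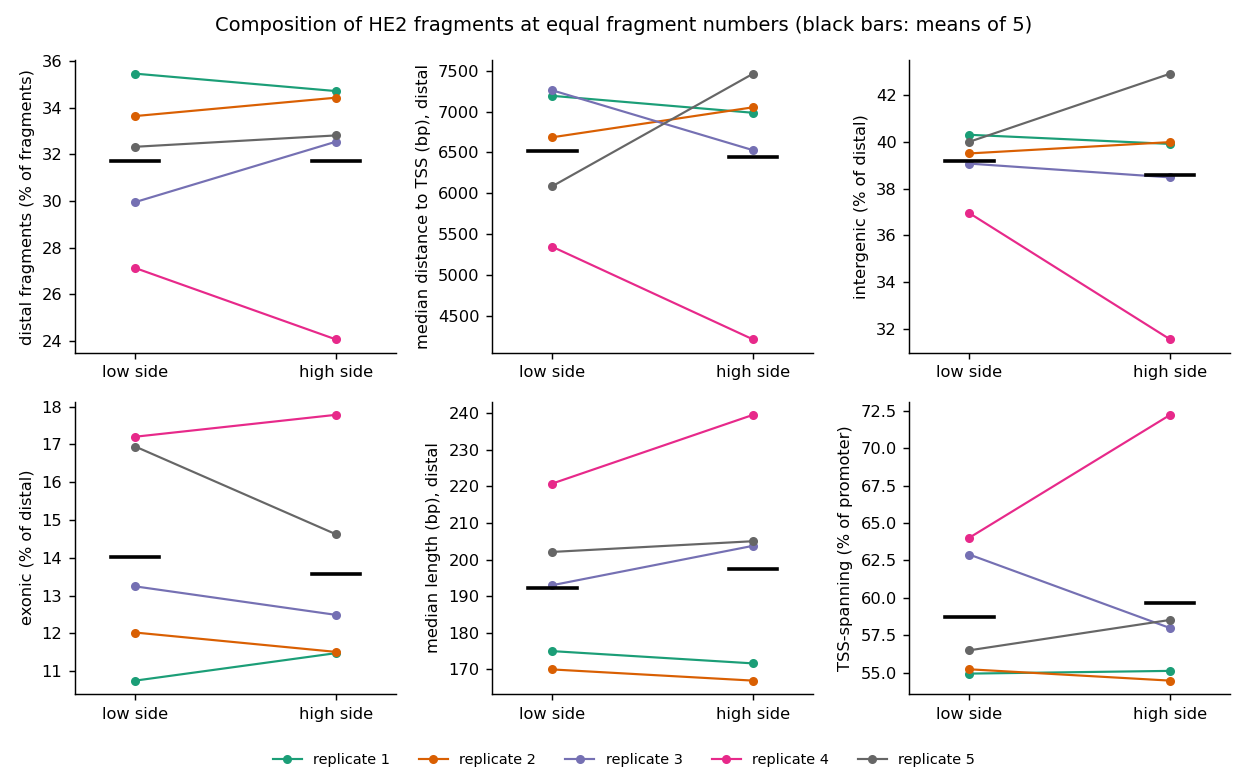
Measures of HE2 fragments at equal fragment numbers, for the low and the high side of each replicate (lines join the sides of 1 replicate, black bars are means of 5). The lines cross and the bars sit at nearly the same height, for example 31.7% distal fragments on both sides, and replicate 4 is at an end of the range on both sides in each panel.

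Single libraries of replicates 1 and 2 were close in both measures, and those of replicates 3 and 4 lay farther apart in length. In replicate 1, distal fragments made up 35.4% of the Medium and 33.8% of the High list, beside 35.5% of the Low list. In replicate 2 they made up 34.3%, 34.6% and 33.6%. Median distal length was 169 and 168 bp in Medium and High of replicate 1, against 175 bp in Low, and 164, 166 and 170 bp in replicate 2. In replicate 3 it was 205 bp in Medium, 172 bp in High and 193 bp in Low, and in replicate 4 it was 237, 247 and 222 bp. In the same order, distal fragments made up 32.4%, 31.03% and 29.96% of the lists of replicate 3 and 23.7%, 24.95% and 27.2% of those of replicate 4.

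The number of loci reached was compared at equal fragment numbers. Overlapping HE2 positive fragments merged into 46014 loci, of which 27431 held fragments of both sides. Loci with high-side fragments only numbered 13079, and loci with low-side fragments only numbered 5504. These counts used all listed fragments. High sides held more fragments in replicates 1 to 3, so the counts do not compare the sides at equal depth. At equal depth the high side reached 332, 467, 979, 817 and 960 loci per 1000 fragments, and the low side 334, 457, 871, 866 and 965. The difference within a replicate ranged from -49.2 to 107.9, higher on the high side in 2 of 5 replicates, with a mean of 12.3 (p = 0.75 by the exact sign-flip test of the 5 differences). The unpaired exact permutation test gave p = 0.937, with an interval of -499 to 503. Both sides of a replicate were drawn to the same number, so that test and its interval also hold the differences in depth between replicates.

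Base composition and motifs were set side by side to see whether the sequence of distal fragments differed. GC content of distal fragments was 55.7% ± 0.548 on the high side and 55.5% ± 0.723 on the low side, a difference of 0.201 percentage points (interval -0.805 to 1.14, adjusted p = 1, exact permutation test). That of promoter fragments was 65.8% ± 0.386 and 65.9% ± 0.237, a difference of -0.127 (interval -0.597 to 0.324). Matches to 16 motifs were counted on either strand as the share of distal fragments that hold their letters. None passed the threshold, and adjusted p was 1 for 15 of them.

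The motif that came closest was GGAATG, the core of the site of the TEAD factors, which carry the output of Hippo signalling. It was held by 11.1%, 11.1%, 12.5%, 14.4% and 11.8% of distal fragments on the high side and by 11.4%, 10.8%, 9.27%, 9.62% and 10.1% on the low side. The high side was higher in replicates 2 to 5 and lower in replicate 1, and the groups overlap. The difference was 1.97 percentage points (interval 0.378 to 3.67), with p = 0.0238 before and 0.429 after adjustment over 18 tests (exact permutation test). In replicates 1 and 2, which held nearly all fragments, it was -0.260 and 0.369. GGAATG was present in 11.5% of all HE2 distal and 6.73% of all promoter fragments.

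No motif of blood or endothelial factors passed, and differences ran in both directions. The GATA letters AGATAA were held by 10.0% ± 1.37 of distal fragments on the high side and 9.81% ± 1.85 on the low side (difference 0.215, interval -1.90 to 2.71). RUNX letters (TGTGGT) were held by 16.1% ± 0.869 and 15.3% ± 2.10 (0.826, interval -1.48 to 3.07). The AP-1 site TGANTCA was held by 10.9% ± 0.368 and 10.9% ± 2.25 (0.0400, interval -2.52 to 2.40). The RBPJ letters TGGGAA, bound by the nuclear partner of Notch, were held by 20.4% ± 3.34 and 18.2% ± 1.23 (2.26, interval -1.78 to 6.15). The TAL1 E-box was held by 16.3% ± 1.71 and 17.3% ± 1.90, lower on the high side in 4 of 5 replicates (-0.970, interval -3.67 to 1.90). The ETS letters CGGAAG were held by 9.54% ± 3.37 and 9.18% ± 2.67 (0.362, interval -4.44 to 5.45), and AGGAAG by 38.1% ± 4.62 and 36.8% ± 2.91 (1.35, interval -4.02 to 7.49). SOX letters (ACAATG) gave 10.5% ± 1.05 and 9.28% ± 1.95 (1.195, interval -1.21 to 3.42). In replicates 1 and 2 the 16 differences lay between -1.09 and 0.946, and in replicates 3 to 5 between -4.27 and 5.54. GATA letters were in 10.9% of distal and 2.07% of promoter fragments of HE2, and KLF and SP letters in 14.7% and 57.7%, over both sides.

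**Figure D4:**
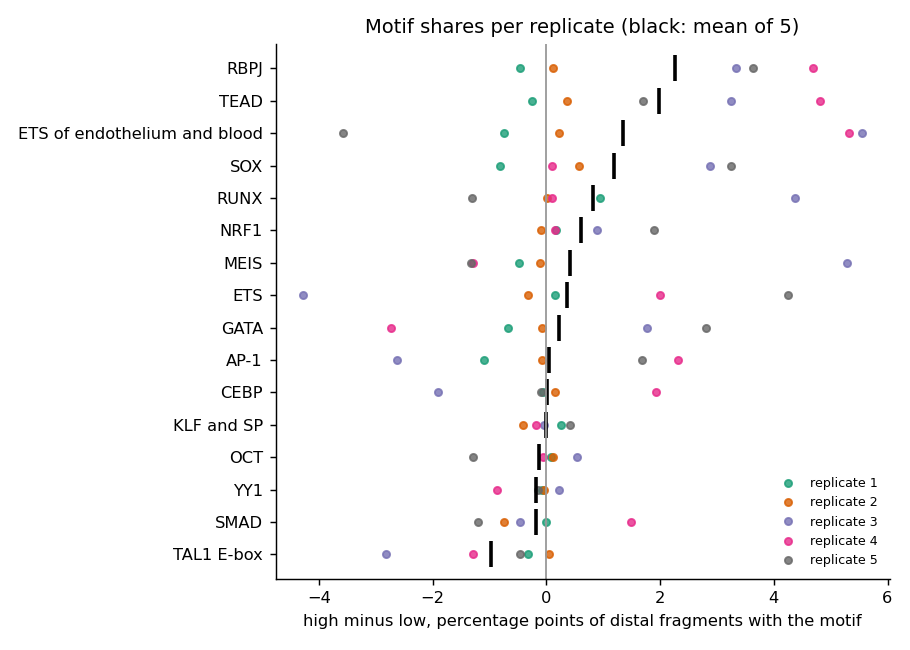
High minus low share of distal HE2 fragments that hold each of 16 motifs, in percentage points, for each of 5 replicates (points) with the mean (black). Replicates 1 and 2 lie between -1.09 and 0.946 for every motif, and replicates 3 to 5 between -4.27 and 5.54.

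Fragments near known regulators of this stage were counted on both sides. Each fragment was given to the protein-coding gene with the nearest start within 100 kb, and 11678 genes and 14544 loci present on at least 4 of the 10 sides were tested by limma on log2(fragments per 10000 listed fragments + 1). No gene and no locus passed an adjusted p of 0.05 (0% of genes and 0% of loci called). At an unadjusted p under 0.05, there were 47 of 11678 genes and 61 of 14544 loci. Both are fewer than the 0.05 share that chance alone would give. The median gene difference was 0.0982 on this log2 scale and 7817 of 11678 genes had a positive value, so the values of single lists are read beside that median. The median itself depended on the setting. It was about 0 at equal fragment numbers, -0.15 for genes with a fragment on at least 6 sides and -0.02 without replicate 3, so the signs of the list medians below are not read as directions. The shallow sides reached few genes (422 on the low side of replicate 3, against 14708 on the high side of replicate 1). Even large changes of single genes could therefore be missed at this depth.

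Blood transcription factors gave 570 fragments, 53.0% of them distal. All 16 members tested missed the threshold, with a median difference of 0.02 beside 0.10 for all genes. Summed over the list, the high side held 17.4, 17.1, 19.7, 32.3 and 0 fragments per 10000 and the low side 18.2, 19.2, 19.8, 35.0 and 37.8. The low side was the higher in each of the 5 replicates, by small amounts except in replicate 5. In replicates 3 to 5 the low side rests on few fragments. The 19.8 of replicate 3 is 1 fragment, of Nfe2. Lyl1, a bHLH factor of blood stem cells, had the most fragments (92, of which 75 at its promoter). It was hit by 39, 28, 7, 0 and 0 fragments on the high side and by 19, 13, 0, 0 and 1 on the low side. Runx1, the regulator of the endothelial-to-hematopoietic transition, was hit by 28, 19, 6, 1 and 0 on the high side and 25, 9, 0, 1 and 1 on the low side, over 16 loci (log2 difference -0.22 ± 1.02 SE, adjusted p = 1.00 by limma). Zfpm1, the partner of GATA factors, was hit by 80 fragments, 65 of them distal. Gata1 had no fragment.

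Endothelial genes had 15 members, which were all tested, and none passed. Their median was 0.27 beside 0.10 for all genes. The list held 18.2, 18.5, 19.1, 24.2 and 15.5 fragments per 10000 on the high side and 18.04, 18.3, 19.8, 17.5 and 0 on the low side. In replicates 1 and 2 the sides were nearly equal. Egfl7, which encodes a secreted endothelial protein, had the most fragments (131, of which 96 distal), followed by Kdr, the receptor FLK1 for VEGF (75), and the cadherin gene Cdh5 (57). Egfl7 was hit by 60, 33, 4, 1 and 1 fragments on the high side and by 36, 17, 0, 2 and 0 on the low side (log2 difference 1.06 ± 0.89 SE, adjusted p = 1.00 by limma). Per 10000 listed fragments this was 4.83, 3.43, 2.46, 8.08 and 15.5 against 4.33, 4.03, 0, 11.7 and 0. The largest gap, in replicate 5, rests on 1 fragment.

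In the other lists of regulators no member passed. ETS factors (9 of 9 tested, none passed, median 0.21) were led by Ets1 with 90 fragments. SoxF and Notch genes (11 of 12 tested, none passed, median 0.26) were led by the Notch target Hes1 with 81. AP-1 and TEAD factors (11 of 12 tested, none passed, median 0.13) were led by Fos with 139, of which 116 were distal. Surface markers (7 of 9 tested, none passed, median -0.07) were led by Cd34 with 65 and Itga2b, which encodes CD41, with 62. The lists were chosen with earlier results of these data known.

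Markers of other cell types were counted in the same way. Cardiac and mesenchymal genes gave 142 fragments (6 of 8 tested, none passed, median 0.07) and pluripotent genes 101 (5 of 7 tested, none passed, median 0.06). These are fragments of cloned DNA near the genes, not RNA, so they say nothing of what the sorted cells expressed, and the labelled stage could not be checked against its markers from these files.

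**Figure D5:**
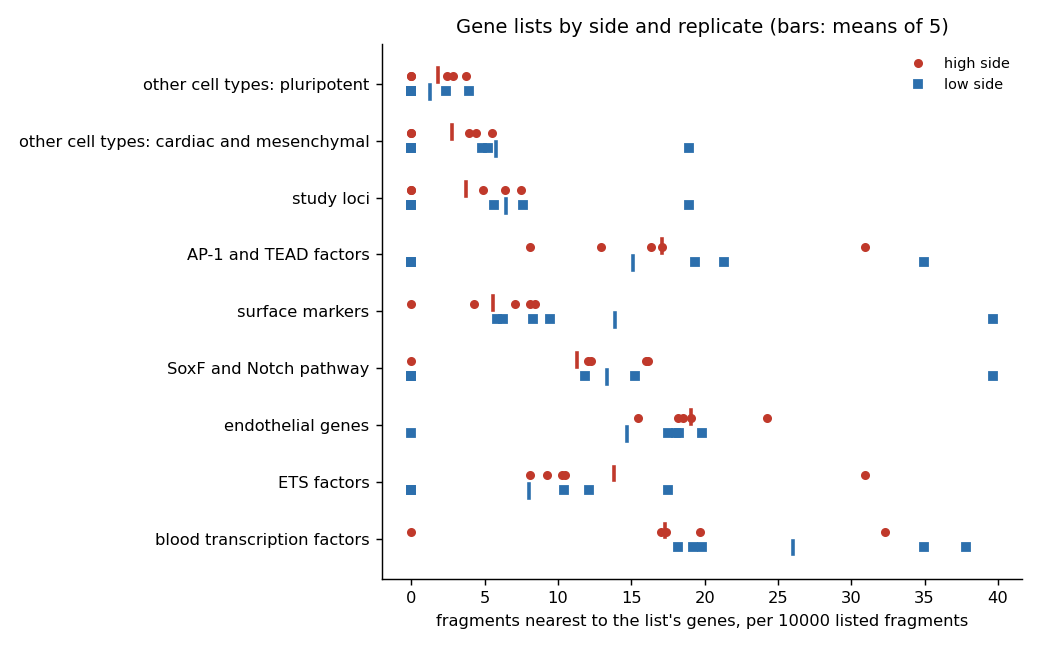
Fragments given to the genes of 9 lists per 10000 listed fragments, for the high side (circles) and low side (squares) of 5 HE2 replicates, with means as bars. The sides overlap in every list, and the points at 0 and at the far right belong to replicates 3 to 5, for example 37.8 for blood transcription factors on the low side of replicate 5.

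The locus of the Mecom element that the study examined (in an intron of Mecom, a zinc finger gene of blood stem cells) was hit by 13 distinct HE2 fragments, 12 times on a high side and 3 times on a low side. They fall into a locus (chr3:30353942-30354226) with 3 high-side fragments in replicate 1 and 1 low-side fragment in replicate 2, and a second (chr3:30354229-30354607) with 3, 5 and 1 high-side fragments in replicates 1, 2 and 3 and 1 low-side fragment in each of replicates 1 and 2. The second was tested (log2 difference 0.23 ± 0.20 SE, adjusted p = 0.998 by limma). High sides held 1.49 and 2.28 times the fragments of low sides in replicates 1 and 2, so the counts were not at equal depth. The longest fragment is shown because it holds the largest number of motifs among the 13, and the second because it was listed on a low side.

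Mecom intron chr3:30354229-30354528, High of replicate 2: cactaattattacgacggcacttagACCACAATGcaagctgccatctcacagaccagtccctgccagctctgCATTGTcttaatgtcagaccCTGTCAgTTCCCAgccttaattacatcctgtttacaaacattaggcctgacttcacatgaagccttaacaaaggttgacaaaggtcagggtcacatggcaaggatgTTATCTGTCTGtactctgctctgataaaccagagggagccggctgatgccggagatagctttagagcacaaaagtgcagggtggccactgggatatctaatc
Mecom intron chr3:30354095-30354226, Low of replicate 2: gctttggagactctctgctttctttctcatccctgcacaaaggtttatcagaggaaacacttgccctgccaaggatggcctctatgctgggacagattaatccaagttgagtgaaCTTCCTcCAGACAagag

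The first holds GATA, MEIS, RBPJ, RUNX, SMAD and SOX letters, of which a GATA and a SMAD match overlap, as do a RUNX and a SOX match near its start. Of distal fragments within 10 bp of its length, 13.2% held the GATA, 21.7% the RUNX and 26.9% the RBPJ letters. The second holds an ETS motif of endothelium and blood and a SMAD motif, held by 35.6% and 14.3% of fragments of like length.

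Loci with fragments on 1 side in most replicates were chosen for that pattern, up to 3 per direction, and are given without a test. High sides held more fragments in replicates 1 to 3, so the directions were not at equal depth. On the high side of 4 replicates and no low side lay a distal locus 26108 bp upstream of Spry2, an inhibitor of receptor tyrosine kinase signalling (chr14:105922574-105923280, 8 fragments), with 3, 4, 2, 1 and 0 fragments. Others lay in an intron of Pcnx2 (chr8:125870737-125871229, 8 fragments) and 14148 bp downstream of the start of Tex44 (chr1:86440157-86440797, 7 fragments). On the low side of 3 replicates and no high side lay an intergenic locus 91054 bp downstream of the start of Map3k7 (chr4:32055255-32055380, 5 fragments). Map3k7, its nearest protein-coding gene, encodes a kinase of TGF-beta and inflammatory signalling. Also there were loci in an intron of Wt1 (chr2:105134412-105134782, 4 fragments) and at Fbxl19 (chr7:127744492-127744736, 4 fragments). The 3 loci with most fragments lay at promoters on both sides. They were at Sfi1 (184 fragments; 65, 58, 12, 0 and 1 on the high side, 53, 25, 1, 1 and 0 on the low side), Dnpep (162) and Rab1a (158).

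The source of the fragments was compared as a check on what was cloned. On a log2(1 + reads) scale, mean reads in the 5 reporter plasmid lists were 1.41 ± 0.258 on the high side and 1.47 ± 0.328 on the low side (n = 5, difference -0.0554, interval -0.494 to 0.423). Fragments identical to a plasmid fragment made up 79.6% ± 5.26 and 78.5% ± 8.59. The sides lay farthest apart in replicate 3, at 77.0% on the high and 64.1% on the low side. Fragments also listed in the Negative gate of the same replicate made up 15.2% ± 16.1 and 19.1% ± 14.4 (difference -3.90 percentage points, interval -25.9 to 20.6). Without replicate 3 this difference was -0.898. Adjusted p was 0.833 for all 3 (exact permutation test). Fragments also found in HM-1 control lists, from cells without a reporter, made up 0.273% to 0.500% of the sides of replicates 1 and 2. In replicate 3 they made up 0.437% of the high and 3.57% of the low side. In replicates 4 and 5 they made up 3.40% to 5.26%. This share was described and not tested.

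The share of fragments common to neighbouring gates was compared with that of Low and High, and the differences were smaller than the spread. In replicates 1 to 4, Low and Medium shared 20.2% ± 20.1 of the smaller list, Medium and High 14.3% ± 11.01, and Low and High 14.2% ± 16.1 (n = 4, adjusted p = 1 for both, exact permutation test over 70 splits, which cannot go below p = 0.0286). Without replicate 4, where sharing was highest, the means were 10.5%, 8.98% and 6.34%. Medium and High shared more of the smaller list than Low and High in 2 of 4 replicates, with 11.8% against 3.56% in replicate 1. Low and Medium shared more of the smaller list than Low and High in 4 of 4 replicates, though by only 3.65% against 3.56% in replicate 1. By the Jaccard index (shared fragments over all fragments of the 2 lists) this order held in 3 of 4 replicates. The exception was replicate 3, where Low held 504 fragments, Medium 14979 and High 1344. Whether list size set the order was not tested. The pairs of gates share libraries, so the values are not independent.

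The differences of HE2 were set beside those of the stages before and after it. For distal share, high minus low was 0.0112 percentage points in HE2, 2.48 ± 1.67 in the earlier hemogenic endothelium (HE1) and 0.904 ± 2.64 in hematopoietic progenitors (HP), with n = 5 each. The difference from HE1 gave p = 0.0714 and an adjusted p of 0.333 (exact permutation test, 14 tests). For distal length it was 5.20 ± 9.50 bp in HE2 and -10.3 ± 7.94 bp in HP, a difference of 15.5 bp with p = 0.0317 and an adjusted p of 0.333 (exact permutation test). In HE1 high minus low of distal length was -40.6 ± 51.4 bp. Its difference from HE2 was 45.8 bp, with p = 0.0714 and an adjusted p of 0.333 (exact permutation test). All 14 comparisons missed the threshold after adjustment.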

How the data were processed

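The sorted libraries were deposited by the authors as BED intervals, each distinct fragment once. The plasmid and HM-1 control lists were deposited with read counts per fragment. Per the methods, the authors combined 2 sequencing runs, trimmed with Trim Galore, mapped to mm10 with Bowtie2, filtered against HM-1 controls, plasmid lists and ATAC peaks, and split distal from promoter fragments. Some fragments of the deposited lists still matched an HM-1 control fragment by the matching used here, in the shares given above. With 25 to 30 PCR cycles and no molecular identifiers, a fragment seen once weighs as much as one seen often. Sorted starts were 1-based; plasmid and control starts were moved by 1 bp, after which 83.1% of 369036 HE2 fragments (Negative included) matched a plasmid fragment exactly, against 3.56% as deposited. Starts, genes and exons were from GENCODE vM21, under which 18.6% of fragments of the distal lists lay within 1.5 kb of some start.

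Analyses used Python 3.11.15, scipy 1.17.1 and limma 3.58.1 in R 4.3.3. Means of 5 replicates were compared by exact two-sided permutation (smallest p 0.00794), with Benjamini-Hochberg adjustment within families and 95% intervals from the inverted test. Limma (lmFit, eBayes with trend) was run on log2(fragments per 10000 + 1), since the lists hold no read counts. The tests were checked on simulated data. Limma recovered few of the large changes put there into single genes and loci at the depths of these sides. Depth per side was 504 to 124176 fragments. Named genes were the list members with most fragments, the fragments and loci on 1 side in most replicates, the Mecom element and the 3 fullest loci. The members and lists were chosen with earlier results of these data known.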

Additional observations from a re-analysis of the deposited data

Results flagged for a closer look

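Within each side and for the difference, 42 sets of 5 values were checked for a replicate far from the other 4, and 4 stood apart. Chance marks about 1 set in 20. Of these, 3 were of the high side of replicate 4: its distal share of 24.1%, its median distance of 4216 bp and its TSS-spanning share of 72.2%. The fourth was the GC content of promoter fragments on the low side of replicate 3, at 66.3%, a side of 504 fragments. In replicate 4 the gates also shared 30.3% to 49.3% of the smaller list with each other.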

How the results depend on the processing

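No result of a permutation test passed an adjusted p of 0.05 under any of the 161 alternatives run with one. Of these, 4 had an unadjusted p under 0.05, all of the TEAD motif. TEAD was the only single motif among these alternatives, so no other motif could be among the 4. The other motifs and the stage differences entered only as counts passing the adjusted threshold. Signs of differences near 0 were not stable. Distal share turned negative with all listed fragments (-0.0171 percentage points), Medium left out (-0.143), fragments on both sides left out (-0.795), plasmid-identical fragments only (-0.706) and the mean over high-side libraries (-0.128). Distance to a start turned positive with Medium left out (24.8 bp), plasmid-identical fragments (263 bp) and protein-coding annotation (447 bp). Intergenic share turned positive with Medium left out (0.116) and plasmid-identical fragments (0.848), and distal length negative with Medium left out (-1.25 bp). Promoter length turned positive with Medium left out (0.615 bp), fragments on both sides left out (4.13 bp), plasmid-identical fragments (2.08 bp) and mean length (0.241 bp). Loci per 1000 fragments turned negative with all listed fragments (-90.1) and Medium left out (-5.06), plasmid reads positive with Medium left out (0.179) and pDONR lists (0.0845), and plasmid identity negative without fragments on both sides (-1.18). The cause was not tested.

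Leaving out each replicate in turn, the difference ranged from -0.633 to 0.779 for distal share, -426 to 201 bp for distance, -1.48 to 0.605 for intergenic and -0.752 to 0.0101 for exonic share. It ranged from 1.82 to 7.34 bp for distal and -5.47 to 3.76 bp for promoter length, -0.864 to 2.42 for TSS-spanning share, -11.6 to 27.7 for loci, -0.0983 to 0.0316 for plasmid reads, -1.80 to 2.83 for plasmid identity, -7.05 to -0.898 for Negative share, 4.13 to 7.93 for the Low-Medium and -2.60 to 2.64 for the Medium-High overlap, and 0.0912 to 0.319 and -0.278 to -0.0171 for GC content of distal and promoter fragments. The TEAD difference stayed positive (1.26 to 2.53).

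Limma with array weights called 8815 genes, all higher on the high side, where the fit with equal weights called 0. The weights did not converge, and went to the low sides of replicates 3, 4 and 5 (241, 125 and 198, against at most 0.82 for the other sides), the sides with 504 to 1715 fragments where most genes have none. Loci gave 0 under every alternative, as did genes under the others, including replicates 1 and 2 only, which was chosen after seeing the data. With those replicates, 396 of 10544 genes had an unadjusted p under 0.05 (limma), also fewer than a 0.05 share.

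With the replicate number as a block, the sign-flip test over 32 patterns cannot go below 0.0625. This exact test gave p = 0.938 for distal share, whose paired difference is the 0.0112 reported, and p = 0.125 for TEAD, and blocked limma called 0 genes and 0 loci. Same-numbered sides correlated at 0.0513 to 0.377 over loci. Only replicate 3, with 504 fragments on its low side, fell under 0.1, and the numbers were not taken to pair the samples. The unpaired tests and intervals therefore also hold differences between replicates. For promoter length, high minus low within a replicate ranged from -17.1 to 19.8 bp, against an unpaired interval of -35.3 to 33.4. Depth limits replicates 3 to 5.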

Other observations

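Across the 460 genes with at least 10 fragments on each of the 4 sides of replicates 1 and 2, the gene-wise log2 ratio of high to low in replicate 1 had a Pearson r of 0.0669 and a Spearman rho of 0.0619 with that in replicate 2. This is a correlation across genes, which are not independent replicates. The points share the plasmid pools, and 27.4% of the low side of replicate 2 was also on the high side of replicate 1. At loci, 44 of 46014 held a high-side fragment in all 5 replicates.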
